A study of Mus musculus with 6 samples.

Results

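The TNF superfamily ligands made by T cells are described here across regulatory T cells (Treg) that carried different forms of the transcription factor FOXP3. The 10 genes were chosen by name as family members (Tnf, Lta, Cd40lg, Cd70, Fasl, Tnfsf4, Tnfsf8, Tnfsf9, Tnfsf10 and Tnfsf14), and all 10 had a row among the 14777 genes of the deposited count table. The list was drawn up with results of the same comparison known, so the members' differences below are a description of each gene and are not independent evidence about the family. The cells of interest were mouse C57BL/6 Treg with a deletion of Foxp3 exon 2 (ΔE2, 3 libraries), and their counterparts were C57BL/6 Treg with full-length FOXP3 (FL, 3 libraries). Both kinds of Treg were made in a dish: naive CD4 T cells were kept for 3 days on coated anti-CD3 with anti-CD28, each at 1 µg/ml, together with human TGFβ at 5 ng/ml and human IL-2 at 20 ng/ml, both recombinant. Per the labels, over 90% of the cells were FOXP3 positive. As a model they stand for Treg induced in culture, not for Treg taken from an animal.

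TNF superfamily ligands are mostly trimeric proteins of the cell surface, some of which are also released by proteases. They bind receptors of the TNF receptor superfamily on neighbouring cells. Receptors with a death domain can start apoptosis, and the others recruit TRAF adaptors and drive NF-κB signalling and survival. Activated T cells switch many of these ligands on after antigen recognition, and Treg are known for high levels of several of the receptors.

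Polyadenylated RNA was counted per gene, with total counts of 13307155 to 16140432 per library. Counts were scaled to library size as CPM, with TMM composition factors, and each gene was tested in edgeR's quasi-likelihood fit over all 14632 genes that passed the filter on low counts, ΔE2 minus FL, with Benjamini-Hochberg adjustment and a threshold of 0.05. All 10 members passed that filter. Foxp3 stood at 436, 403 and 335 CPM in ΔE2 replicates 1 to 3, against 447, 397 and 337 CPM in FL replicates 1 to 3. That count covers the whole gene and so does not check the loss of the exon. The T cell markers Cd3e, Cd3d, Cd3g, Cd4, Trac, Foxp3 and Il2ra were all present. Since no label states that the 3 replicates of a group are different animals or cultures, the p-values speak of library-to-library spread, and that spread may be technical. In bulk RNA, more cells that make a ligand and more RNA per cell cannot be told apart.

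Of the 10 ligand genes, 8 were called higher in ΔE2 cells (Tnf, Lta, Cd40lg, Cd70, Tnfsf4, Tnfsf8, Tnfsf9 and Tnfsf14), 1 was called lower (Tnfsf10) and 1 did not pass (Fasl). Over all 14632 genes, 3.75% were called higher and 2.43% lower, or 6.17% in either direction. In 8 of the 10 genes every ΔE2 library lay above every FL library, which was so in 13.6% of all tested genes (27.1% had groups apart in either direction). In Tnfsf10 every ΔE2 library lay below every FL library, as in 13.5% of all genes, and only in Fasl did the groups overlap. The median log2 fold change of the 10 members was 0.93, beside -0.0043 over all tested genes. Since the list was made with these differences known, no more is read from those counts. In the authors' deposited table all 10 members had an adjusted p (FDR) under 0.05, Fasl included at 0.00342, with 9 of them higher and Tnfsf10 lower in ΔE2. Of all genes there, 8.17% were under 0.05, 4.91% higher and 3.26% lower.

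**Figure D1:**
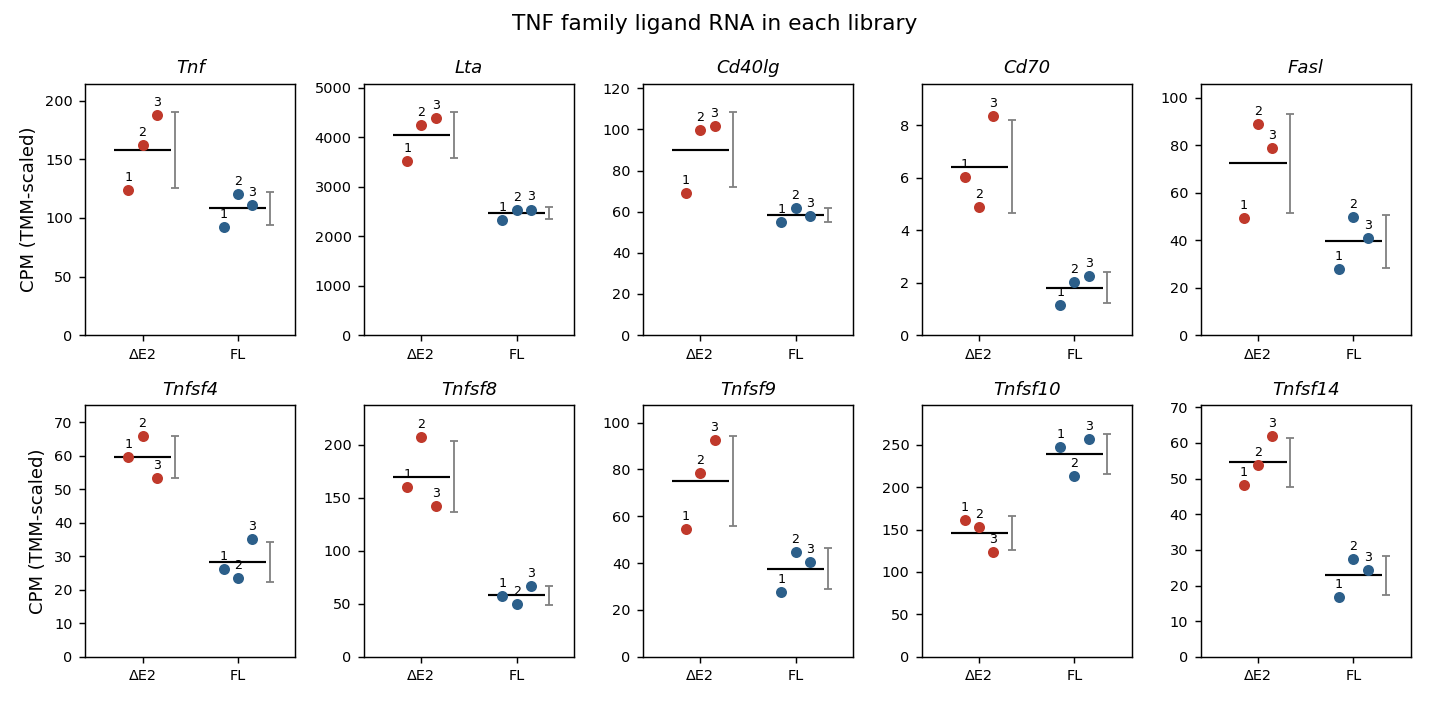
TMM-scaled CPM of each ligand gene in the 3 ΔE2 and the 3 FL libraries (points, numbered by replicate), with the group mean (black line) and SD (grey bar); each panel has its own axis from 0. The ΔE2 points lie above the FL points in 8 panels, below them for Tnfsf10, and overlap them for Fasl.

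Lta, which encodes lymphotoxin alpha, was by far the most abundant ligand RNA. Lta (ENSMUSG00000024402.5, mm10 chromosome 17, 35203165 to 35205351, minus strand) had 3513, 4242 and 4386 CPM in ΔE2 replicates 1 to 3, against 2324, 2531 and 2540 CPM in FL replicates 1 to 3. The lowest ΔE2 library was above the highest FL library. The ΔE2 level was 1.64-fold the FL level (log2 fold change 0.72 ± 0.14 SE; edgeR quasi-likelihood test, adjusted p = 0.00566). Per kilobase of gene length, the FL mean of 1783 ± 88.3 CPM (SD, n = 3) ranked 12 among the 14777 genes. Lymphotoxin alpha is secreted as a homotrimer that binds the TNF receptors, and it also joins lymphotoxin beta in a membrane complex that binds the lymphotoxin beta receptor. In the summed CPM of the 10 members, Lta made up 82.3% to 83.8% in ΔE2 and 80.0% to 81.0% in FL libraries. Without Lta the other members summed to 732, 915 and 851 CPM in ΔE2, against 552, 593 and 637 CPM in FL.

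Tnf, the founding inflammatory cytokine of the family, is the neighbour of Lta, with 1157 bases between the genes. Tnf (ENSMUSG00000024401.14, chromosome 17, 35199381 to 35202007, minus strand) had 124, 162 and 188 CPM in ΔE2 replicates 1 to 3, against 92.5, 121 and 111 CPM in FL replicates 1 to 3. The lowest ΔE2 library, replicate 1, lay only just above the highest FL library. It rose 1.46-fold in ΔE2 (log2 fold change 0.55 ± 0.15; adjusted p = 0.0348). The call was lost without ΔE2 replicate 2 (adjusted p = 0.213), ΔE2 replicate 3 (0.106), FL replicate 1 (0.146) or FL replicate 3 (0.0864). It was also lost when no composition factor was applied (0.113) and with limma-voom (0.0595). The log2 fold change stayed between 0.40 and 0.70 under all 13 alternatives. Ltb, which encodes lymphotoxin beta and lies on the other side of Tnf, had 283 ± 39.6 CPM in ΔE2 and 247 ± 28.0 CPM in FL (SD, n = 3 each). This log2 fold change, 0.20 ± 0.13, was not past the threshold (edgeR quasi-likelihood test, adjusted p = 0.391). Whether it differs from the changes of Tnf and Lta was not tested.

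The RNAs of Tnf and Lta carry the A+U-rich elements through which proteins such as tristetraprolin (Zfp36) destabilise cytokine RNAs. The sites are shown because these were the members with the 9-base element TTATTTATT in the 3′ UTR, 2 of 10, against 7.58% of 20952 mouse genes (longest coding transcript of GENCODE M21, mm10, transcript strand). The search was chosen after the members' values were seen. Capitals mark ATTTA pentamers, which can overlap.
Tnf, chr17:35199679-35199708, minus strand: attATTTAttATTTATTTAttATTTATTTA
Lta, chr17:35203404-35203433, minus strand: tatggagagaaaagttaagttATTTATTTA
The Tnf site alone held 5 pentamers, and the whole Tnf 3′ UTR of 764 bases held 8. The Lta site held 2 of the 3 pentamers of its 572-base 3′ UTR. The other members had between 1 and 10 pentamers, with the 10 in the 2799-base 3′ UTR of Tnfsf8. At least 1 pentamer was present in 64.7% of all these 3′ UTRs. Per kilobase of 3′ UTR, Cd70 had 12.8 pentamers (1 in 78 bases), Tnf 10.5, Tnfsf9 7.9 and Lta 5.2. The remaining members ran from 0.98 (Tnfsf14) to 4.4 (Cd40lg). The median was 1.35 over 19732 3′ UTRs of at least 100 bases.

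Of the 5 ligands with the larger fold changes, Cd70 had the largest and the lowest level. Cd70 (ENSMUSG00000019489.7, chromosome 17, 57145997 to 57149777, minus strand) encodes the ligand of CD27, a costimulatory receptor. It had 90, 63 and 121 reads in ΔE2 replicates 1 to 3, against 17, 34 and 32 reads in FL replicates 1 to 3. These are 6.02, 4.88 and 8.35 CPM in ΔE2, against 1.14, 2.02 and 2.27 CPM in FL, and the groups stood well apart. The rise was 3.54-fold (log2 fold change 1.82 ± 0.27; adjusted p = 0.000389), with a 95% interval of 1.25 to 2.39 that is the widest among the called members. Per kilobase, 31.6% of genes were below its FL level.

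Tnfsf8, which encodes CD30 ligand (ENSMUSG00000028362.2, chromosome 4, 63831308 to 63861347, minus strand), had the smallest p of the family. It had 160.5, 208 and 142 CPM in ΔE2 replicates 1 to 3, against 57.3, 49.7 and 67.1 CPM in FL replicates 1 to 3. The lowest ΔE2 value was more than the highest FL value by a wide margin. The rise was 2.93-fold (log2 fold change 1.55 ± 0.15; edgeR quasi-likelihood test, adjusted p = 1.01e-05). CD30 ligand binds CD30, the product of Tnfrsf8, on activated lymphocytes.

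Tnfsf14 (ENSMUSG00000005824.6, chromosome 17, 57189492 to 57194189, minus strand) encodes LIGHT, a ligand of HVEM and of the lymphotoxin beta receptor. It had 48.1, 53.7 and 61.9 CPM in ΔE2 replicates 1 to 3, against 16.8, 27.5 and 24.4 CPM in FL replicates 1 to 3, and rose 2.38-fold (log2 fold change 1.25 ± 0.16; adjusted p = 0.000213). The ΔE2 libraries were all well above the FL libraries.
Tnfsf4 (ENSMUSG00000026700.4, chromosome 1, 161395409 to 161418410, plus strand) encodes OX40 ligand, a costimulatory ligand better known on antigen-presenting cells. It had 59.7, 66.1 and 53.3 CPM in ΔE2 replicates 1 to 3, against 26.1, 23.7 and 35.1 CPM in FL replicates 1 to 3, again with the groups apart. The ΔE2 level was 2.11-fold the FL level (log2 fold change 1.08 ± 0.14; adjusted p = 0.000126).

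Tnfsf9 (ENSMUSG00000035678.7, chromosome 17, 57105385 to 57107757, plus strand) encodes 4-1BB ligand, whose receptor 4-1BB is a costimulator of T cells. It had 54.5, 78.4 and 92.4 CPM in ΔE2 replicates 1 to 3, against 27.8, 44.8 and 40.4 CPM in FL replicates 1 to 3. It rose 1.99-fold, and its adjusted p of 0.0492 lay just under the threshold (log2 fold change 0.99 ± 0.23; edgeR quasi-likelihood test). The call was lost without ΔE2 replicate 2 (adjusted p = 0.253), ΔE2 replicate 3 (0.0829) or FL replicate 3 (0.105). It was also lost when no composition factor was applied (0.0733). The long noncoding gene Gm11110 overlaps the span of Tnfsf9 on the other strand, and whether counting used strand is not given, though no exons of the 2 genes overlap in the annotation of the table. Gm11110 itself had a log2 fold change of 0.11 ± 0.20 (edgeR quasi-likelihood test, adjusted p = 0.793).

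Cd40lg (ENSMUSG00000031132.1, chromosome X, 57212143 to 57224042, plus strand) encodes CD40 ligand, the signal by which helper T cells license B cells and dendritic cells. It had 69.2, 99.6 and 101.9 CPM in ΔE2 replicates 1 to 3, against 55.2, 61.9 and 58.1 CPM in FL replicates 1 to 3. All ΔE2 libraries were higher, with replicate 1 nearest to FL. The rise was 1.54-fold (log2 fold change 0.63 ± 0.14; adjusted p = 0.0102), and the call was lost without ΔE2 replicate 2 (adjusted p = 0.105). The Lta call was also lost without that library (0.0592).

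Fasl (ENSMUSG00000000817.10, chromosome 1, 161780689 to 161788495, minus strand) encodes Fas ligand, the death ligand of cytotoxic T cells. It had 49.2, 89.1 and 78.9 CPM in ΔE2 replicates 1 to 3, against 27.8, 49.8 and 41.1 CPM in FL replicates 1 to 3. The groups overlapped, because ΔE2 replicate 1 lay just under FL replicate 2. The log2 fold change was 0.87 ± 0.30 and missed the threshold (edgeR quasi-likelihood test, adjusted p = 0.170), and the 95% interval ran from 0.11 to 1.63. Between libraries of the same replicate number the log2 ratio was 0.82, 0.84 and 0.94 for numbers 1, 2 and 3. With the replicate number as a block, a fit that called 21.5% of all tested genes, Fasl passed (adjusted p = 2.28e-13), as it did without ΔE2 replicate 1 (0.0073) and with limma-voom (0.0413). That pairing of libraries by number was inferred from these same data and is not in the labels.

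Tnfsf10 was the ligand that fell. It encodes TRAIL, which binds death receptors and is induced by interferons in many cells. Tnfsf10 (ENSMUSG00000039304.11, chromosome 3, 27317028 to 27342427, plus strand) had 161, 153 and 124 CPM in ΔE2 replicates 1 to 3, against 248, 213 and 257 CPM in FL replicates 1 to 3. Every ΔE2 library was below every FL library. The log2 fold change was -0.71 ± 0.13 (edgeR quasi-likelihood test, adjusted p = 0.00245), so FL cells had 1.64-fold the level of ΔE2 cells. This call held under all 13 alternatives, between -0.85 and -0.61.

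**Figure D2:**
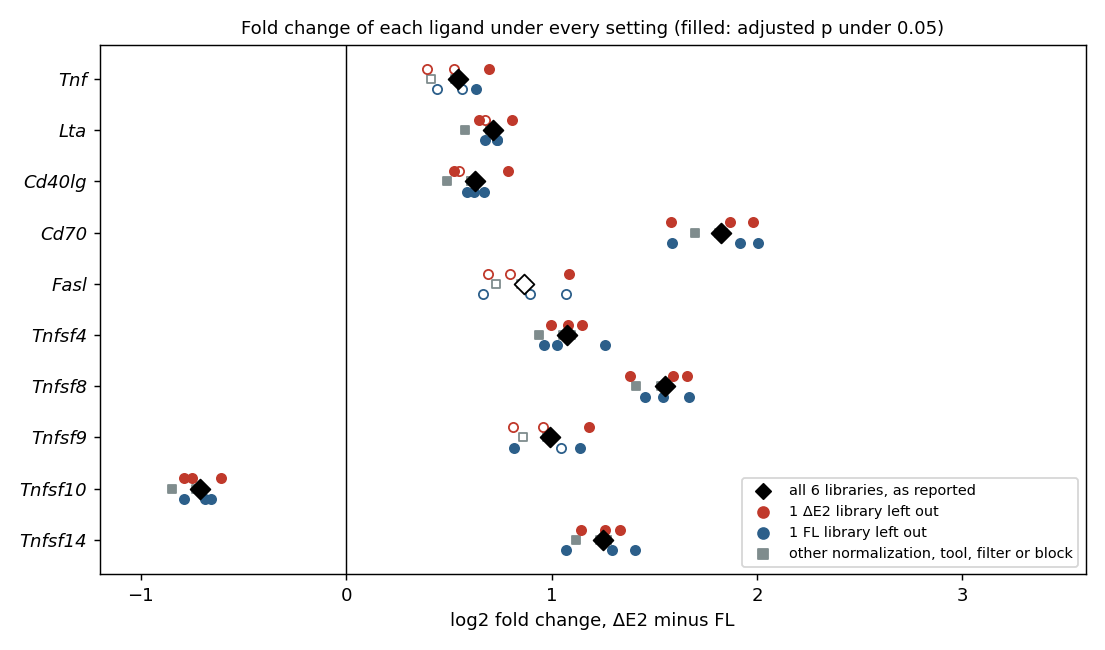
Log2 fold change (ΔE2 minus FL) of each ligand gene with all 6 libraries (black diamonds), with 1 ΔE2 (red) or 1 FL (blue) library left out, and under the other alternatives (grey squares); filled marks have an adjusted p under 0.05. No mark crosses 0. Tnf and Tnfsf9 have several open marks among filled ones, Lta and Cd40lg have 1 open mark each, and most Fasl marks are open.

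The members' spread within groups took more than one form. Tnf, Lta, Cd40lg, Fasl, Tnfsf9 and Tnfsf14 were each lowest in replicate 1 of ΔE2 and lowest in replicate 1 of FL. Tnfsf4 and Tnfsf8 were instead highest in ΔE2 replicate 2 and in FL replicate 3, and lowest in ΔE2 replicate 3 and in FL replicate 2. Replicate numbers otherwise carry no order. Among 9388 genes with at least 5 CPM on average and no predicted-model name, the patterns most like that of Lta over the 6 libraries were those of the chemokine gene Ccl20 (Pearson r 0.9985), the nucleoside transporter gene Slc29a3 (0.9974) and Wrb (0.9971). The 6 libraries fall into separate groups, and 672 of those genes had an r over 0.9.

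Compared per kilobase, the order of the ligands differed between the groups for 2 genes in particular. In ΔE2 cells Lta came first at 2926 ± 338 CPM per kilobase, followed by Tnf (96.3 ± 19.8), Cd40lg (72.2 ± 14.6), Tnfsf9 (61.0 ± 15.6), Tnfsf8 (44.7 ± 8.90), Fasl (37.4 ± 10.7), Tnfsf4 (32.4 ± 3.46), Tnfsf14 (29.4 ± 3.73), Tnfsf10 (27.7 ± 3.74) and Cd70 (7.62 ± 2.10). In FL cells Lta was followed by Tnf (66.0 ± 8.79), Cd40lg (46.7 ± 2.68), Tnfsf10 (45.4 ± 4.44), Tnfsf9 (30.6 ± 7.16), Fasl (20.4 ± 5.72), Tnfsf4 (15.4 ± 3.27), Tnfsf8 (15.2 ± 2.29), Tnfsf14 (12.3 ± 2.97) and Cd70 (2.15 ± 0.70; SD, n = 3 each). Tnfsf10 was in place 9 in ΔE2 and in place 4 in FL, while Tnfsf8 was in place 5 in ΔE2 and in place 8 in FL. Only Lta at the top and Cd70 at the bottom stood apart from their neighbours in both groups. In ΔE2 every other pair of neighbours in that order overlapped in range, and in FL Tnf also stood above Cd40lg and Tnfsf10 above Tnfsf9.

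**Figure D3:**
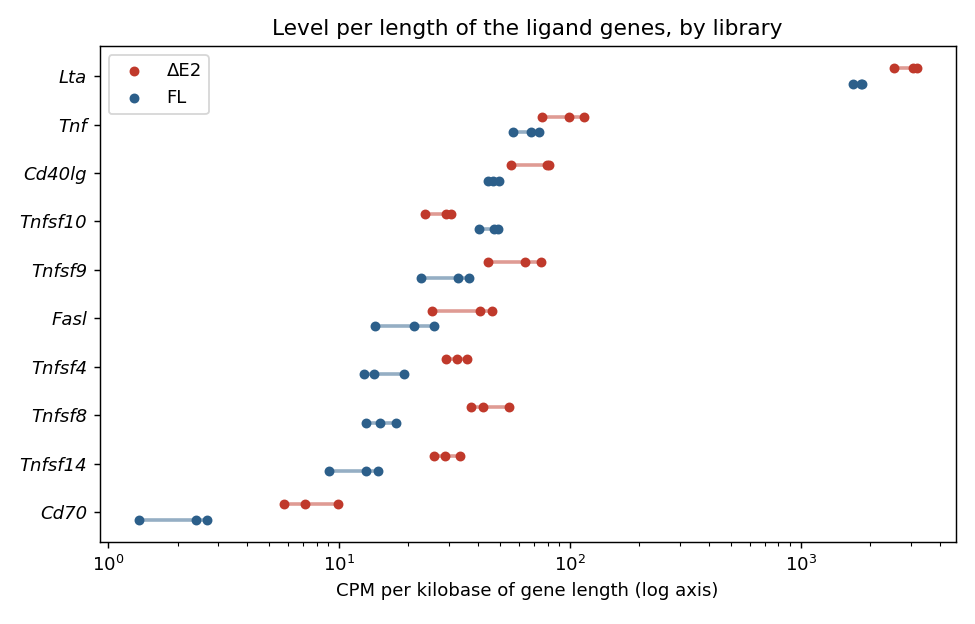
Level of each ligand gene as CPM per kilobase of gene length (log axis) in the 3 ΔE2 (red) and 3 FL (blue) libraries, with the range as a line, ordered by the FL mean. Lta lies above 1680 in every library, Cd70 lies below 10 in every library, and Tnfsf10 has its ΔE2 points to the left of its FL points.

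The ligand genes sit in clusters, as is known for this family. Tnf and Lta share a locus with Ltb, and Tnfsf9, Cd70 and Tnfsf14 lie together on chromosome 17 with 38239 and 39714 bases between them and no other gene of the table in the gaps. Tnfsf4 and Fasl share a stretch of chromosome 1, with 362278 bases between them. Within 100 kb of the members lay 35 other genes, of which 1 was called higher (Nceh1, beside Tnfsf10) and 2 lower (Bag6 near Tnf and Lta, and Khsrp near Tnfsf9). The median log2 fold change of those 35 genes was 0.0096, beside -0.0043 over all tested genes. Over all tested genes 3.75% were called higher and 2.43% lower, or 6.17% in either direction.

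Promoter sequences (250 bases before to 50 after the start) were on hand from RefSeq on GRCm38.p6, the assembly of mm10, for 6 members (Tnf, Lta, Fasl, Tnfsf8, Tnfsf10 and Tnfsf14). Those of Tnfsf8 and Tnfsf14 are shown because they had the largest rises among the 6, and that of Tnfsf10 because it fell. Both strands were searched for TATAAA, the NFAT core GGAAA, the AP-1 site TGANTCA, the RUNX core TGTGGT, the forkhead core TGTTTAC and the NF-κB site. Capitals mark the matches on either strand, so that GGAAA on the other strand reads TTTCC.
Tnfsf8, chr4:63861235-63861534, minus strand: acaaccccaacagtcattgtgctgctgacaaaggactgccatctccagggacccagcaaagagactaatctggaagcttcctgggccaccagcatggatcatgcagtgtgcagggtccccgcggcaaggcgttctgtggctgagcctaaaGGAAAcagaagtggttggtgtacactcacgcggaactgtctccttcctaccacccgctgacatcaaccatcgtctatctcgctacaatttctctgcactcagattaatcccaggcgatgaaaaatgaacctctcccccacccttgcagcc
Tnfsf14, chr17:57194132-57194431, minus strand: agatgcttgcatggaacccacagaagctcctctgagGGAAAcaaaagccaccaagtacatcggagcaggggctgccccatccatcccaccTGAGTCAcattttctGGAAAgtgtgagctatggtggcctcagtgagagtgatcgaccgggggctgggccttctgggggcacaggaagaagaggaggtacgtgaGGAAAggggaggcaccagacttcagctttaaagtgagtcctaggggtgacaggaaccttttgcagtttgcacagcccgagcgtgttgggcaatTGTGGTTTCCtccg
Tnfsf10, chr3:27316827-27317126, plus strand: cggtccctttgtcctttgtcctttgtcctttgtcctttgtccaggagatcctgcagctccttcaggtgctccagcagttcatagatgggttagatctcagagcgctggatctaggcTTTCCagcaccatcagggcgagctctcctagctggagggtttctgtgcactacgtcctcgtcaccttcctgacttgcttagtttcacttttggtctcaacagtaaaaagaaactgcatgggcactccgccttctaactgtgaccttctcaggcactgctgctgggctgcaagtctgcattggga

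All 6 promoters held GGAAA, as did 61.3% of 32851 mouse promoters. Tnfsf14 had 4 matches to it, Tnf and Lta 3 each, Fasl 2, and Tnfsf8 and Tnfsf10 1 each. TATAAA was found in Tnf, at -29 to -24 from the start, and in Lta, farther off at -167 to -162, against 13.6% of all promoters. Tnfsf14 alone held TGANTCA (7.81% of all promoters) and TGTGGT (16.8%), the TGTGGT overlapping a GGAAA match by 1 base. The forkhead core and the NF-κB site had no match in these 6 windows, and they were found in 3.65% and 8.46% of all promoters.

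Receptors for the ligands, with the HVEM partners Btla and Cd160, were considered as a list of 15 genes, of which 14 were tested. Of these, 7 were called higher, 0 lower and 7 did not pass (9 higher and 0 lower at an unadjusted p under 0.05 in the edgeR quasi-likelihood test; 7 and 0 with DESeq2, 6 and 0 with limma-voom). Over all 14632 tested genes, 3.75% were called higher and 2.43% lower (726 and 400 genes with DESeq2, 429 and 227 with limma-voom). The list median log2 fold change was 0.62, beside -0.0043 over all tested genes. The list was also put together with earlier results known.

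Tnfsf9, Tnfsf8 and Tnfsf4, which rose, each had a receptor gene that was also called higher. Tnfrsf9, the 4-1BB gene, had 1294, 1143 and 1088 CPM in ΔE2 replicates 1 to 3, against 560, 569 and 578 CPM in FL replicates 1 to 3 (log2 fold change 1.05 ± 0.13; edgeR quasi-likelihood test, adjusted p = 5.19e-05). Tnfrsf8, the CD30 gene, had 7.23, 5.73 and 8.97 CPM in ΔE2, against 1.75, 2.97 and 3.40 CPM in FL (1.43 ± 0.25, adjusted p = 0.00184). In both genes every ΔE2 library was above every FL library. Tnfrsf4, the OX40 gene, averaged 2191 ± 405 CPM in ΔE2 and 1465 ± 245 CPM in FL (SD, n = 3 each; 0.58 ± 0.16, edgeR quasi-likelihood test, adjusted p = 0.0362). The Tnfrsf4 call was lost when any library but ΔE2 replicate 1 was left out (adjusted p 0.0562 to 0.191), without the composition factor (0.1002) and with limma-voom (0.0556).

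Fas and Tnfrsf10b, receptor genes of Fas ligand and of TRAIL, were also called higher in ΔE2. Fas, the receptor of Fas ligand, had 216, 286 and 248 CPM in ΔE2 replicates 1 to 3, against 137, 155 and 163 CPM in FL replicates 1 to 3 (log2 fold change 0.72 ± 0.13; edgeR quasi-likelihood test, adjusted p = 0.0021). Tnfrsf10b, the mouse TRAIL death receptor gene, had 25.4, 36.7 and 38.1 CPM in ΔE2, against 17.3, 20.2 and 18.1 CPM in FL (0.85 ± 0.15, adjusted p = 0.0021). The receptor gene thus rose where the ligand gene Tnfsf10 fell, each tested on its own. The TRAIL decoy receptor genes Tnfrsf22 (0.40 ± 0.15, adjusted p = 0.112) and Tnfrsf23 (0.65 ± 0.23, adjusted p = 0.0968) did not pass, and passed with the replicate block (0.0149 and 0.0119).

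Other receptor genes did not pass beside ligands that did. The TNF receptor genes Tnfrsf1a and Tnfrsf1b had log2 fold changes of 0.20 (95% interval -0.046 to 0.45) and 0.14 (-0.10 to 0.38). Cd27, the receptor gene of the Cd70 product, had 0.24 (-0.019 to 0.50), and Tnfrsf14, which encodes HVEM, had 0.12 (-0.19 to 0.44). Cd40 gave little precision, with an interval of -0.98 to 0.97. Btla and Cd160, inhibitory receptors that also bind HVEM, rose by 0.92 ± 0.15 and 1.38 ± 0.12 (edgeR quasi-likelihood test, adjusted p = 0.00134 and 9.53e-07). Ltbr, the lymphotoxin beta receptor gene, had no row under that name among the deposited counts and so was not tested.

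**Figure D4:**
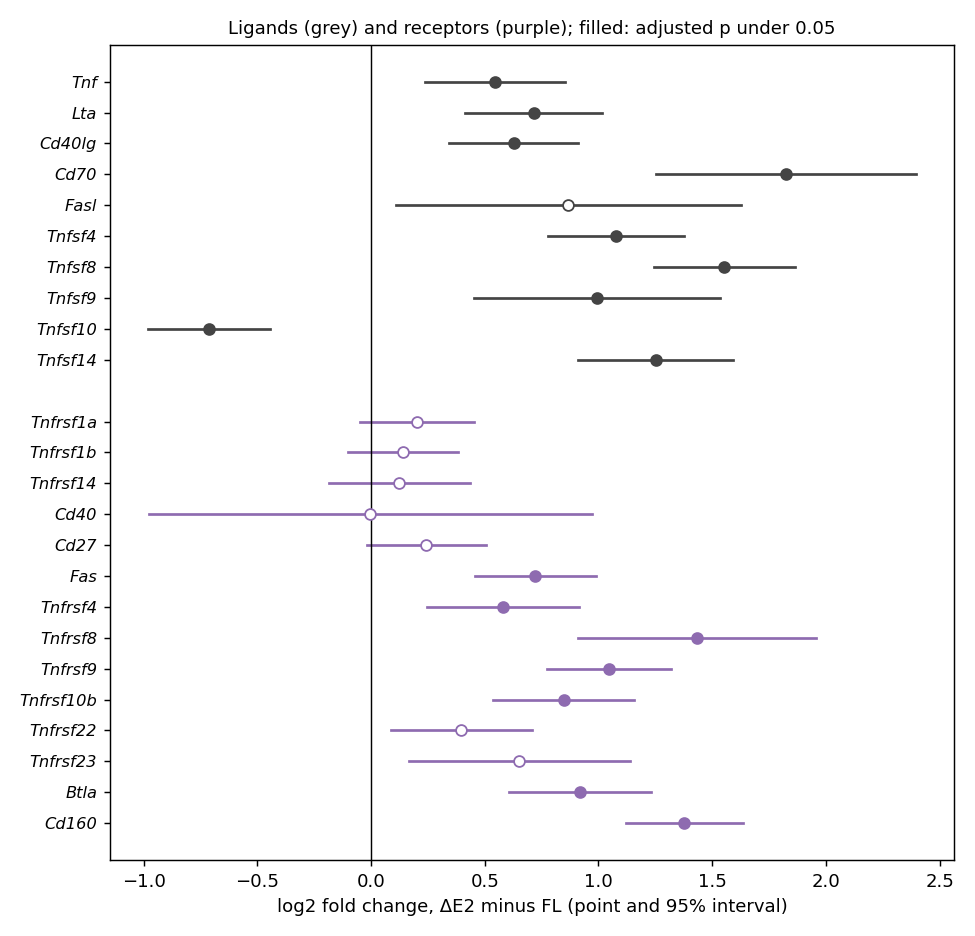
Log2 fold change (ΔE2 minus FL) with its 95% interval for the 10 ligand genes (grey, above) and 14 receptor and HVEM partner genes (purple, below); filled points had an adjusted p under 0.05. Tnfsf10 is the only ligand point left of 0, and 7 of the 14 receptor points are filled, all to the right of 0.

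Genes that act on the ligands were compared in the same fit. Beside a share of 6.17% called over all tested genes, the release list had 1 gene called of 6 tested. That gene was Adam17, which encodes the protease that releases TNF and several other family ligands. It had 182, 247 and 213 CPM in ΔE2 replicates 1 to 3, against 115, 149 and 157 CPM in FL replicates 1 to 3 (log2 fold change 0.61 ± 0.14; edgeR quasi-likelihood test, adjusted p = 0.0144). The call was lost without ΔE2 replicate 2 (0.132), ΔE2 replicate 3 (0.0510) or FL replicate 1 (0.0961). Its partner genes Rhbdf2 (0.38 ± 0.13, adjusted p = 0.0863) and Frmd8 (-0.32 ± 0.16, adjusted p = 0.281), and the intramembrane protease gene Sppl2a (0.37 ± 0.12, adjusted p = 0.0713), did not pass. With the replicate block Rhbdf2 (edgeR quasi-likelihood test, adjusted p = 0.0146) and Sppl2a (0.00187) were called higher and Frmd8 (0.00624) lower, so that the release list had 3 higher and 1 lower.

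Of 12 genes for proteins that bind or cut cytokine RNAs, 3 fell and 0 rose (4 and 0 at an unadjusted p under 0.05 in the edgeR quasi-likelihood test; 3 and 0 with DESeq2, 2 and 0 with limma-voom). Over all tested genes 2.43% were called lower and 3.75% higher. The list median log2 fold change was -0.17, beside -0.0043 over all tested genes. Zfp36l2, a relative of tristetraprolin, averaged 23.4 ± 1.51 CPM in ΔE2 and 34.4 ± 3.44 CPM in FL (SD, n = 3 each; log2 fold change -0.56 ± 0.13, edgeR quasi-likelihood test, adjusted p = 0.0121). Hnrnpd, which encodes AUF1, and Khsrp, which encodes KSRP, had log2 fold changes of -0.49 ± 0.12 (adjusted p = 0.0218) and -0.43 ± 0.12 (adjusted p = 0.0404). All 3 calls were lost without ΔE2 replicate 2 (adjusted p 0.0788 to 0.195) or FL replicate 1 (0.0844 to 0.179). Hnrnpd also lost its call without FL replicate 2 (0.0812), and Khsrp without FL replicate 2 (0.151), ΔE2 replicate 3 (0.0541) and with limma-voom (0.0627). With the replicate block Zc3h12a, which encodes the RNase Regnase-1, was also called lower (edgeR quasi-likelihood test, adjusted p = 0.0460, against 0.194 without the block). Zfp36 itself, which encodes tristetraprolin, stood at 0.12 ± 0.15 (adjusted p = 0.691).

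The receptor signalling and inducing factor lists had few calls, beside 6.17% of all tested genes called in either direction. Of 21 adaptor, apoptosis and NF-κB genes, Traf5 fell by 0.51 ± 0.13 on the log2 scale (edgeR quasi-likelihood test, adjusted p = 0.0184), 20 did not pass, and the list median was -0.074. TRAF5 is an adaptor of OX40, CD27 and CD30. Its call was lost without ΔE2 replicate 2 (0.0934) or FL replicate 1 (0.134). Of 16 transcription factor genes known to act on these ligands, Egr2 rose (0.83 ± 0.13, adjusted p = 0.000596) and Nfatc2 fell (-0.43 ± 0.13, adjusted p = 0.0444). The Nfatc2 call was lost when any library but ΔE2 replicate 1 was left out (adjusted p 0.0765 to 0.237) and with limma-voom (0.0643). With the replicate block, calls were added in both lists: Traf2 higher (edgeR quasi-likelihood test, adjusted p = 0.0356, against 0.173 without the block) and Ripk1 lower (0.00373, against 0.0623) among the signalling genes. Among the transcription factor genes the block added Fos higher (0.0452, against 0.229), and Jun (0.00163, against 0.319) and Stat5b (0.0344, against 0.248) lower. Of the other family ligands, Ltb, Tnfsf11 and Tnfsf13b were tested and 0 were called in edgeR's quasi-likelihood test, DESeq2 or limma-voom (1 higher and 0 lower at an unadjusted p under 0.05 in each). Tnfsf13b, which encodes BAFF, was called higher with the replicate block (edgeR quasi-likelihood test, adjusted p = 0.0236, against 0.1196 without the block). Tnfsf11, which encodes RANK ligand, stood at 51.6 ± 10.3 CPM in ΔE2 and 52.6 ± 3.76 CPM in FL (SD, n = 3 each).

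Markers of other cells and measures of the libraries are given here, and their relation to the ligand values was not tested. The CD8 T cell markers Cd8a and Cd8b1 summed to 138, 58.4 and 50.8 CPM in ΔE2 replicates 1 to 3, against 53.0, 28.97 and 48.3 CPM in FL replicates 1 to 3. Without ΔE2 replicate 1, where that sum was highest, 9 ligand genes were called higher and 1 lower. That fit called 780 genes higher and 587 lower over the whole table, beside 548 and 355 with all 6 libraries. The gamma-delta list, with 3 of 4 markers in the table and Trgv2 as most of the sum, gave 113 to 192 CPM in ΔE2 and 48.0 to 91.0 CPM in FL, without overlap, and its part in the ligand values was not tested. None of these 3 markers was called, and only Trgv2 had its groups apart, while Tcrg-C1 and Trdc overlapped. Trdc stood at 0.24 ± 0.31 on the log2 scale (edgeR quasi-likelihood test, adjusted p = 0.705). The 7 T cell markers summed to 11005 to 13746 CPM in ΔE2 and 10341 to 10878 CPM in FL, and this too was not tested against the ligands. Cd4 was the marker among them called higher (edgeR quasi-likelihood test, adjusted p = 0.0438), a call lost when any library but ΔE2 replicate 1 was left out (0.0650 to 0.250). Cd3e, Cd3d, Cd3g and Trac also had every ΔE2 library above every FL library, with adjusted p of 0.0581 to 0.170 without the replicate block and 0.000346 to 0.0200 with it. The block, which called 21.5% of all tested genes, also called Cd68, Cd8b1 and Tcrg-C1 higher (edgeR quasi-likelihood test, adjusted p = 0.0135, 4.29e-06 and 0.000172). It did not call the other tested markers of those lists, Lyz2 (0.428), Cd8a (0.354), Trdc (0.475) and Trgv2 (0.148). The 4 B cell markers summed to 14.7 to 33.7 CPM in ΔE2 and 14.8 to 33.5 CPM in FL. The myeloid sum (Lyz2 and Cd68, 2 of 6 listed) was 8.97 to 22.6 CPM in ΔE2 and 4.52 to 7.86 CPM in FL, without overlap and not tested against the ligands. Lyz2 itself overlapped, with 14.7, 2.32 and 0.759 CPM in ΔE2 replicates 1 to 3, against 1.48, 0.178 and 1.77 CPM in FL replicates 1 to 3. Cd68 had its groups apart, and neither gene was called without the block. The NK cell sum (2 of 4) was 20.6 to 27.5 CPM in ΔE2 and 14.0 to 25.6 CPM in FL. Of the 4 dendritic cell markers none had a row. The authors' deposited mapping statistics gave the share of reads assigned to genes as 75.4%, 75.5% and 69.3% in ΔE2 replicates 1 to 3, against 70.3%, 71.5% and 69.3% in FL replicates 1 to 3. Without ΔE2 replicate 2, 4 ligand genes were called higher (Cd70, Tnfsf4, Tnfsf8 and Tnfsf14) and 1 lower (Tnfsf10). Over the whole table that fit called 125 genes higher and 51 lower.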

How the data were processed

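RNA was measured in 6 libraries, grouped by genotype in the labels. Per the file headers, each gene had an unnormalized read count in each library as deposited. The tools listed in the submitters' processing notes were STAR 2.5, bcl2fastq, edgeR 3.20.8, Subread 1.5.1 and featureCounts, and the build was mm10, with no settings. The authors also deposited log2 CPM values, log2 fold changes and p-values of their own comparison, per the file headers, used only where named. Whether counting used strand is not given.

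From the counts, R 4.3.3 with edgeR 4.0.16 was used: filterByExpr (145 genes left out), TMM, estimateDisp and glmQLFit with robust settings, and glmQLFTest with group as the only term, two-sided. The SE is the size of the log2 fold change over the square root of F. The test was also run on simulated counts, with 2-fold changes in genes over 5 CPM only. Those libraries were simulated as independent. That run therefore does not bear on paired libraries, smaller changes or genes at lower levels. The members and gene lists were chosen with earlier results of these data known. Named were all members, called list genes and the members' receptors; others named were chosen after their values were seen. Protein identity was not run, as no protein table was used. Alternatives were DESeq2 1.42.0, its size factors, limma-voom (limma 3.58.1), no composition factor, other filters, each library left out and a replicate block. Same-numbered libraries deviated together across genes (r 0.392, 0.207 and 0.185, each over 0.1; other pairs -0.287 to 0.0972), so the numbers appear to pair the libraries, an inference from the data. The calls reported come from the fit without the block, and the blocked value is given where it changes a call.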

Additional observations from a re-analysis of the deposited data

How the results depend on the processing

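No ligand changed direction under any of the 13 alternatives (12 for Cd70, which did not pass the filter of 5 CPM in 3 libraries). Tnfsf4, Tnfsf8, Tnfsf10 and Tnfsf14 kept their calls under all 13, and Cd70 under all 12. The replicate block, from a pairing inferred from the data, called 9 ligands higher and 1 lower, gaining Fasl. It called 1678 genes higher and 1471 lower over the whole table, where the fit without it called 548 and 355. The receptor, release, cytokine RNA, signalling, transcription factor and other-ligand lists, with 72 tested genes, were counted together as pathway genes. The block called 16 of these higher and 10 lower, beside 9 and 5 without it. The receptor list held 7 of those 9. Without the composition factor the median gene moved by -0.14 (log2), with 264 genes higher and 954 lower, so that 21.7% of calls were higher, against 60.7%. With limma-voom 227 genes and 3 pathway genes were lower. Leaving out 1 library gave 125 to 780 genes higher and 51 to 587 lower, 4 to 9 ligands higher, 1 ligand lower each time, 7 to 11 pathway genes higher and 0 to 7 lower. The count of 0 came without ΔE2 replicate 2 (6 at an unadjusted p under 0.05, edgeR quasi-likelihood test) and without FL replicate 1 (7). The cause was not tested. Depth limits Cd70 most, with 17 reads in 1 FL library.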
